A study of Mus musculus with 9 samples.

Results

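The mitochondrial ribosomal proteins are the nuclear-encoded proteins of the ribosome inside the mitochondrion. Their genes were taken by symbol from the array annotation: every gene whose symbol begins with Mrpl, the large subunit, or with Mrps, the small subunit, pseudogenes left out. This gave 76 of the 18194 genes that the array names, 47 of them Mrpl and 29 Mrps. Each gene was represented by the probe set with the highest mean signal over the 9 arrays. A filter that left out genes with a mean in the lowest 40% of all probe sets kept 12369 genes for testing, and all 76 members were among them.

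The series asks how mouse T-cell lymphomas with alternative lengthening of telomeres (ALT), telomere upkeep through recombination, differ from tumours that use telomerase. All 9 tumours had the genotype G3 Atm-/-TERT-ER: mice labelled G3 that lack the DNA damage kinase Atm and carry a telomerase reverse transcriptase fused to an oestrogen receptor domain that 4-hydroxytamoxifen (4-OHT) activates. The lymphomas arose under 4-OHT and were carried in SCID mice, which lack functional B and T cells of their own. The telomerase group is 3 tumours at passage 4 in recipients given 4-OHT, the ALT group is 5 tumours at passage 4 in recipients given vehicle, and a parental tumour, labelled as using telomerase, has no replicate and is only described. The drug, active telomerase and ALT change together between the groups and cannot be told apart. No label used here says that the tumours of a group grew in different animals, so a p-value reflects only how these samples vary, which may be technical variation.

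The mitochondrial ribosome translates the few messages of the mitochondrial genome, which encode core subunits of the respiratory chain and the ATP synthase. Its small subunit reads the message and its large subunit forms the peptide bonds. Compared with the bacterial ribosome it has less RNA and many proteins found only in mitochondria, and all of its proteins are made in the cytosol from nuclear genes scattered over many chromosomes, then imported.

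Signals are MAS5 intensities, a linear measure of hybridisation per probe set, and changes are differences of log2(signal + 16), ALT minus telomerase, from limma. A gene was called at an adjusted p under 0.05 over all 12369 genes. Array medians lay between 39.8 and 43.8. T-cell markers were high everywhere but their summed signal was lower in ALT tumours (21284 to 27166) than in telomerase tumours (29279 to 31695), and 3 of 8 measured markers fell and 1 rose. Markers of pancreatic acinar cells, which do not belong to a lymphoma, summed to 82160 to 170310 in telomerase tumour 3 and ALT tumours 1, 2 and 5, against 328 to 982 in the other passage 4 tumours, with 12 of 18 listed markers measured. Skeletal muscle markers (12 of 12 measured) summed to 14193 in the parental tumour and 9229 in telomerase tumour 1, against 262 to 618 elsewhere. Macrophage markers overlapped between groups (6182 to 9167 in telomerase and 6326 to 9734 in ALT tumours). For the pancreatic markers, values without and with those arrays and with a term for their signal are given below; the part of the other markers was not tested. In bulk RNA, fewer cells of a type and less RNA per cell cannot be told apart.

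As a family, the mitochondrial ribosomal proteins stayed close to the telomerase level. In the ALT tumours 3 members rose and 6 fell, 9 of 76 or 11.8%, where 17.5% of all tested genes were called (7.48% higher and 10.1% lower). Mrpl28, Mrpl50 (on its brighter probe set only) and Mrpl57 rose, and Mrpl32, Mrpl4, Mrpl39, Mrps21, Mrps31 and Mrps34 fell. The median change of the 76 members was −0.011 on the log2 scale, against −0.0062 for all tested genes, and the members spanned −0.83 (Mrpl32) to 0.45 (Mrpl50). The change was under 0.5 in either direction for 74 members, and for 61 the whole 95% interval lay within 0.5. An unadjusted p under 0.05 was reached by 14 members (18.4%), against 31.4% of all tested genes. The 5 ALT values lay above all 3 telomerase values for 5 members and below them for 7, together 15.8%, where 24.8% of all tested genes had groups that did not overlap (10.9% higher and 13.9% lower).

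**Figure D1:**
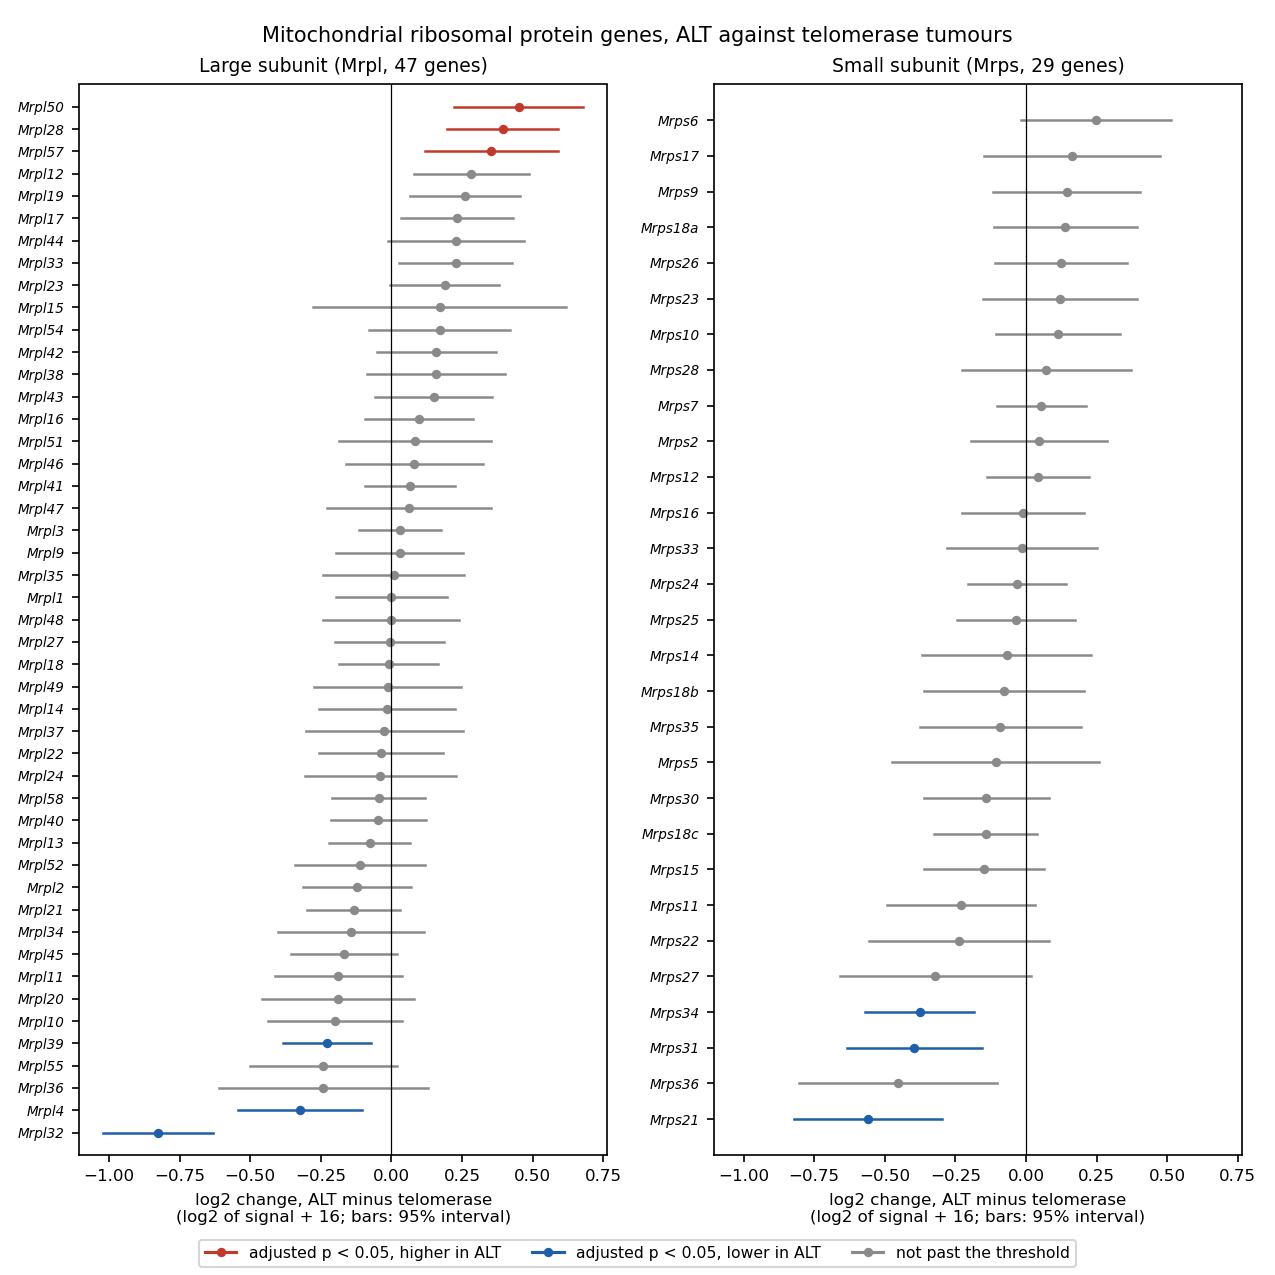
Log2 change, ALT minus telomerase tumours, of the 47 large and 29 small subunit genes (points) with 95% intervals (bars); the x axis is the difference of log2(signal + 16). The 3 red genes rose, the 6 blue genes fell, and most grey points lie within 0.25 of 0, with Mrpl32 alone beyond −0.75.

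The counts depended on single arrays. Without telomerase tumour 1, Mrpl32 was the 1 member called (9.40% of all genes were then called). Without the other arrays in turn 5 to 8 members were called, with 11.9% to 17.0% of all genes called. Among tumours free of pancreatic transcripts, 2 of each group, Mrpl28 rose and Mrpl32 fell (6.73% of all genes called), and within those that carry them (1 telomerase and 3 ALT tumours, the lone tumour taken to vary like the others) Mrpl32 fell (2.72% of all genes called). With a term for the pancreatic signal in the fit 3 members rose (Mrpl12, Mrpl28 and Mrpl50) and 3 fell (Mrpl32, Mrps21 and Mrps34), with 14.4% of all genes called. With quantile normalisation 3 members rose and 3 fell (17.6% of all genes called), and with the mean of a gene's probe sets 1 rose and 7 fell (17.9%).

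Among the members of both subunits Mrpl32 moved the most. Mrpl32 is a large subunit protein whose precursor is cut by the m-AAA protease in the matrix before it joins the ribosome. Its signal was 1119, 1053 and 1199.7 in telomerase tumours 1 to 3, and 633, 606, 621, 693 and 582 in ALT tumours 1 to 5, with 1215 in the parental tumour. Every ALT tumour lay far below every telomerase tumour, and the parental tumour sat just above the telomerase values. The means were 1124 ± 73.6 (SD, n = 3) and 627 ± 41.4 (SD, n = 5), a fold of 0.558 (log2 change −0.83, SE 0.09, 95% interval −1.02 to −0.63, limma adjusted p = 0.000302). The call held whichever array was left out, with a change of −0.71 in the arrays without pancreatic transcripts (limma adjusted p = 0.0246) and −0.97 in the arrays with them (limma adjusted p = 0.0319). A single probe set measures Mrpl32.

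Mrps21, the counterpart of the bacterial small subunit protein S21, showed the second largest fall. The telomerase tumours gave 1208, 909 and 1149, and the ALT tumours 688, 719.8, 855, 719 and 672. ALT tumour 3 was the highest of its group, and even so lay below the lowest telomerase tumour. The group means were 1089 ± 158 (SD, n = 3) and 731 ± 72.6 (SD, n = 5), a log2 change of −0.56 (SE 0.12, 95% interval −0.82 to −0.30, limma adjusted p = 0.00966). Without telomerase tumour 1 the call was lost (−0.48, limma adjusted p = 0.0562), as it was within the arrays without pancreatic transcripts (−0.41, limma adjusted p = 0.219). A second probe set gave −0.54 (limma adjusted p = 0.0627).

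Both other small subunit proteins that fell, Mrps34 and Mrps31, are found in mitochondria and not in bacteria. Mrps34 read 1415, 1273 and 1348 in the telomerase tumours and 1125, 987, 953, 1124 and 984 in the ALT tumours, with no overlap. Its log2 change was −0.38 (SE 0.09, 95% interval −0.57 to −0.18, limma adjusted p = 0.0155), from 1345 ± 70.9 (SD, n = 3) to 1035 ± 83.3 (SD, n = 5). The Mrps34 call was lost without telomerase tumour 1 (limma adjusted p = 0.0787). For Mrps31 the telomerase signals were 934, 1106 and 936 and the ALT signals 778, 691, 864, 663 and 758. The highest ALT tumour, again tumour 3, lay a little below the lowest telomerase tumour. Mrps31 changed by −0.40 (SE 0.11, limma adjusted p = 0.0307), from 992 ± 99.0 (SD, n = 3) to 751 ± 78.8 (SD, n = 5). Its adjusted p exceeded 0.05 when telomerase tumour 1 (0.0697), 2 (0.127) or 3 (0.0552), or ALT tumour 2 (0.0642) or 4 (0.0533), was left out of the limma fit.

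In the large subunit, Mrpl4 and Mrpl39 also fell, by less. Mrpl4, the counterpart of a bacterial protein that reaches into the tunnel through which the new peptide leaves, read 1084, 927 and 907 against 769, 776, 831, 819 and 673. The means of Mrpl4 were 973 ± 97.2 (SD, n = 3) and 774 ± 62.1 (SD, n = 5), a log2 change of −0.32 (SE 0.10, limma adjusted p = 0.0489). Leaving out any of the 8 arrays ended this call (limma adjusted p from 0.0537 without ALT tumour 3 to 0.206 without telomerase tumour 1). Mrpl39, specific to mitochondria, read 3139, 3049 and 3395 against 2659.8, 2917, 2824, 2707 and 2514. From 3194 ± 179 (SD, n = 3) to 2724 ± 155 (SD, n = 5) it changed by −0.23 (SE 0.07, limma adjusted p = 0.0478). Of the 8 fits with an array left out, the Mrpl39 call held only without ALT tumour 2 (limma adjusted p = 0.0438); the others gave 0.0625 to 0.162. Its second probe set gave −0.27 (limma adjusted p = 0.0462), a call that held only without telomerase tumour 1 (0.0472). For both genes the groups did not overlap.

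The 3 genes counted as risen, Mrpl50 by its brighter probe set alone, encode large subunit proteins. Mrpl28, a counterpart of bacterial L28, read 1419, 1378 and 1417 in the telomerase tumours and 1947, 1829, 1959, 1983 and 1569 in the ALT tumours. The telomerase values were tightly grouped, and ALT tumour 5 lay lowest of its group but above all of them. The means were 1405 ± 23.0 (SD, n = 3) and 1857 ± 172 (SD, n = 5), a fold of 1.32 (log2 change 0.39, SE 0.09, 95% interval 0.20 to 0.59, limma adjusted p = 0.0135). Of its 3 probe sets, the others gave 0.44 (limma adjusted p = 0.0102) and 0.41 (limma adjusted p = 0.0523). The first 2 of these probe sets carry the array maker's mark for probes shared with other sequences, and the third does not. The call ended without telomerase tumour 1 (limma adjusted p = 0.0521) or 2 (0.0516), and within the arrays with pancreatic transcripts (0.32, 0.399).

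Mrpl57, a small protein found only in mitochondria, read 1809.8, 1678 and 1999.6 in the telomerase tumours and 2066, 2206, 2233, 2425 and 2810.5 in the ALT tumours. The gap between the highest telomerase and the lowest ALT tumour was narrow. Its change was 0.35 (SE 0.11, limma adjusted p = 0.045), from 1829 ± 162 (SD, n = 3) to 2348 ± 288 (SD, n = 5). Its call was lost without telomerase tumour 1 (0.136) or 2 (0.163) or ALT tumour 2 (0.0626), 3 (0.0625), 4 (0.0771) or 5 (0.0526), all limma adjusted p. Its second probe set gave −0.18 (limma adjusted p = 0.481), the opposite sign without a call.

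Mrpl50, also without a bacterial counterpart, cannot be given a direction from these arrays. Its brighter probe set read 409, 451 and 376 in the telomerase tumours and 497, 576, 629.6, 590.5 and 554 in the ALT tumours, a log2 change of 0.45 (SE 0.10, limma adjusted p = 0.0145). Its dimmer probe set fell, from 260, 274 and 246 to 205, 171, 175, 207 and 184, a change of −0.43 (SE 0.10, limma adjusted p = 0.0149). On each probe set the groups were fully apart, in opposite directions. The mean of its probe sets gave 0.17 (limma adjusted p = 0.198). The brighter probe set lost its call without telomerase tumour 1 (limma adjusted p = 0.0602) or 3 (0.0598), and the dimmer one without telomerase tumour 1 (0.0608) or 2 (0.0648).

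**Figure D2:**
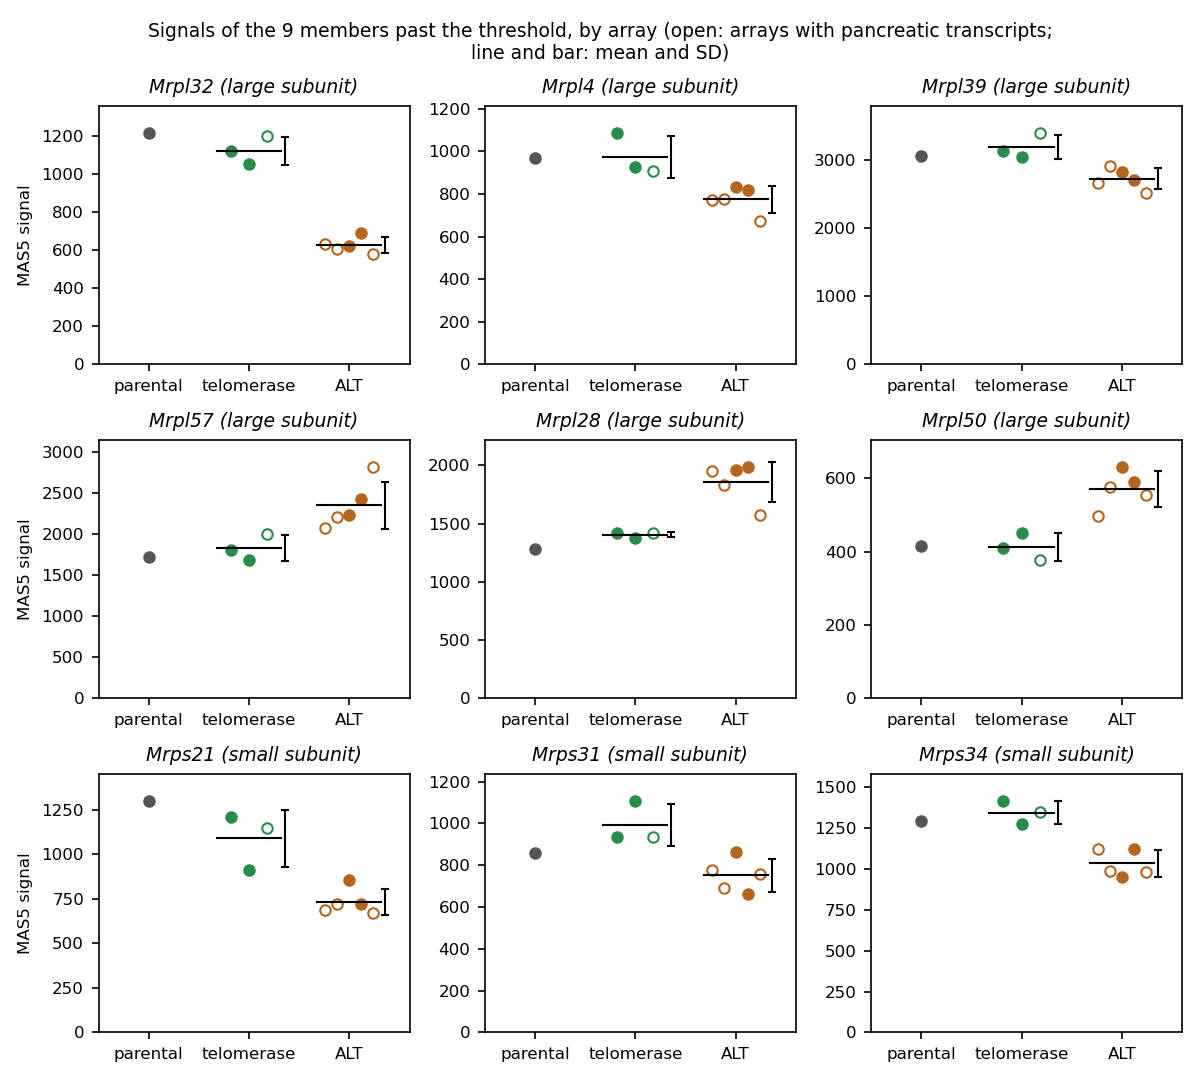
MAS5 signal (y axis, linear, from 0) of the 9 called members in the parental tumour, the 3 telomerase and the 5 ALT tumours; open points are the arrays with pancreatic transcripts, lines and bars are group means and SD. Groups do not overlap for any of the 9, and the gap is widest for Mrpl32 (582 to 693 in ALT tumours, 1053 to 1199.7 in telomerase tumours).

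The single parental tumour lay nearer the telomerase mean than the ALT mean for 8 of the 9 called members, Mrps31 being the exception. Over all 76 members it was nearer the telomerase mean for 47 (61.8%), against 71.2% of all tested genes. Its median difference from the telomerase mean was 0.019, with members from −0.24 (Mrpl40) to 0.31 (Mrpl23).

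Stretches of sequence at the starts of these genes are shown for the 2 that fell most, Mrpl32 and Mrps21, and for 2 of those that rose, Mrpl28 and Mrpl57, because promoters of mitochondrial ribosomal protein genes are known for sites of NRF1, ETS family factors (GABP among them) and YY1. Each runs 5′ to 3′ on the gene's strand from 250 bases before to 50 bases after the annotated start, from RefSeq on GRCm38.p6. Capitals mark exact matches on either strand to GCGCA, any base, then GCGC for NRF1, to CCGGAAG for ETS factors or to AAGATGGC for YY1; no capitals means no match.
Mrpl32 (chr13:14612988-14613287, minus strand): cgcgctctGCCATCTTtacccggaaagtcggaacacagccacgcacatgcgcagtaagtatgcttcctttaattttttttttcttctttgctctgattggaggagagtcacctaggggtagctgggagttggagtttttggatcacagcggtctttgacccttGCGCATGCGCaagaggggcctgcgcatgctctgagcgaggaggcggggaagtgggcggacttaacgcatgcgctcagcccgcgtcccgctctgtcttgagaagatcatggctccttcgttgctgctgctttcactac
Mrps21 (chr3:95871465-95871764, minus strand): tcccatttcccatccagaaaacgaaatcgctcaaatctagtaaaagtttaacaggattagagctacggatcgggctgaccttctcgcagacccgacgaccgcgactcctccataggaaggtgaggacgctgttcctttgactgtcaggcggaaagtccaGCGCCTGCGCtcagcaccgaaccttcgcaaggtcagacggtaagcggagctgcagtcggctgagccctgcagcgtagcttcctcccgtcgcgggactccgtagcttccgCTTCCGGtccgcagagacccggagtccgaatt
Mrpl28 (chr17:26123253-26123552, plus strand): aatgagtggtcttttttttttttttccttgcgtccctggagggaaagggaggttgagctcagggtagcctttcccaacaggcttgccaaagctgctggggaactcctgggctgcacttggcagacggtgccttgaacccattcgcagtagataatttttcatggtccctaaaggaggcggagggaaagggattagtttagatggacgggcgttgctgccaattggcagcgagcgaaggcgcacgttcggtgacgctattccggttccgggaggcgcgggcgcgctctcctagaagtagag
Mrpl57 (chr14:57825989-57826288, plus strand): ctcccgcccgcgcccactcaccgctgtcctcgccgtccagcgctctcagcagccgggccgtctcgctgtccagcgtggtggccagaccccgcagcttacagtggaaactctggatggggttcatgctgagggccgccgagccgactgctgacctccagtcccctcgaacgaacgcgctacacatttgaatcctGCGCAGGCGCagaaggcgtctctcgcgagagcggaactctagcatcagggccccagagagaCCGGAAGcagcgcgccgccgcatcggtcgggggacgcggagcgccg
The Mrpl32 promoter holds an NRF1 match, which reads the same on both strands and counts once, and a YY1 match. Mrps21, which fell, and Mrpl57, which rose, each hold an NRF1 and an ETS match. Over all called members with a window, NRF1 matches stood in 3 of 4 that fell and 1 of 3 that rose. ETS matches stood in 1 of 4 and 1 of 3, and YY1 matches in 1 of 4 and 0 of 3. Whether matches go with direction was not tested. The Mrpl28 window has no match.

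Of the 76 members 67 have promoters in the RefSeq table, 73 windows in all. NRF1 matches stood in 12 of the 73 windows (16.4%), against 6.4% of 21263 protein-coding windows of the same length. ETS matches stood in 25 (34.2%, against 11.6%) and YY1 matches in 12 (16.4%, against 3.1%). At least 1 of the 3 motifs stood in 41 windows (56.2%, against 18.9%). By subunit, NRF1 matches stood in 19.6% of 46 large and 11.1% of 27 small subunit windows, and ETS matches in 30.4% and 40.7%. These are letter matches, given as a description.

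Setting the subunits side by side, the large subunit had 3 genes that rose, Mrpl50 counted by its brighter probe set, and 3 that fell. The small subunit had none that rose and 3 that fell. These are 12.8% of the large and 10.3% of the small subunit genes, both under the 17.5% of all tested genes. An unadjusted p under 0.05 in limma was reached by 4 of 29 small and 10 of 47 large subunit genes. Of all tested genes 31.4% reached it, in either direction. The 4 small subunit members were all lower in ALT tumours, and of the 10 large subunit members 7 were higher. The 4 include Mrps36, whose place is taken up below. Median changes were −0.0025 for the 47 large and −0.037 for the 29 small subunit genes, 0.034 apart. Per array, the mean log2 deviation from the telomerase mean over the large subunit was 0.037, −0.012 and −0.025 in the telomerase tumours and −0.022, 0.032, 0.064, 0.011 and −0.038 in the ALT tumours. Over the small subunit it was 0.028, 0.0018 and −0.029 in the telomerase tumours and −0.090, −0.14, 0.063, −0.039 and −0.16 in the ALT tumours. ALT tumours 1, 2 and 5 were thus lowest for the small subunit, ALT tumour 3 was highest for both, and the groups overlapped.

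Large minus small, the per-array difference was 0.0091, −0.014 and 0.0045 in the telomerase tumours and 0.068, 0.18, 0.0018, 0.050 and 0.13 in the ALT tumours. Its ALT mean was 0.084 ± 0.068 (SD, n = 5), and ALT tumour 3 lay within the telomerase range. The 3 widest differences belong to the 3 ALT tumours with pancreatic transcripts, while telomerase tumour 3, which carries them too, was at 0.0045. The telomerase tumours are the reference for each gene, so their small differences are in part set by that choice. Among tumours without pancreatic transcripts, ALT tumours 3 and 4 were at 0.0018 and 0.050, and telomerase tumours 1 and 2 at 0.0091 and −0.014. The difference of the medians was 0.12 within the arrays with pancreatic transcripts and 0.034 over all 8 arrays. With a term for the pancreatic signal in the fit the medians were 0.018 (large) and 0.0029 (small), 0.015 apart. No p is given for these scores over members.

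**Figure D3:**
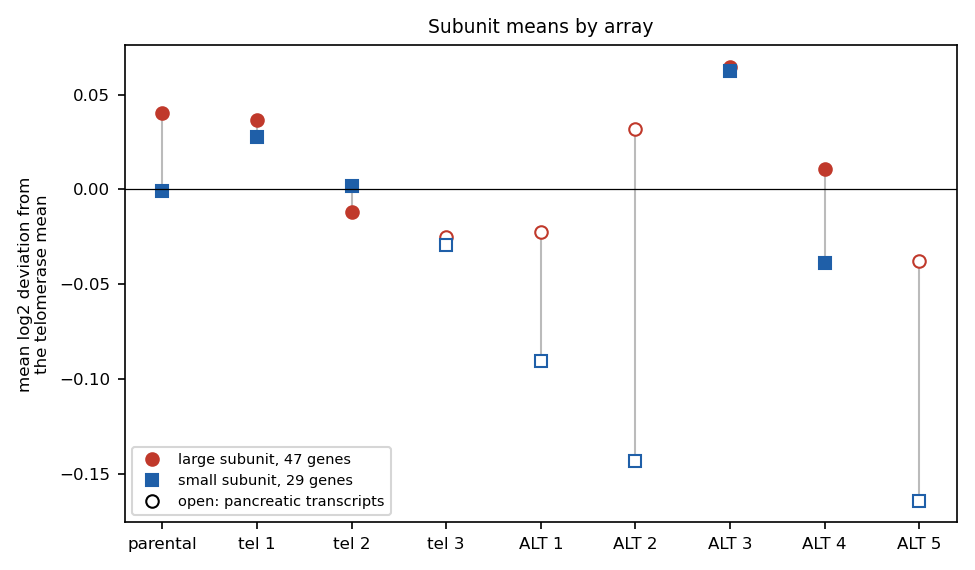
Mean log2 deviation from the telomerase mean (y axis) of the 47 large (circles) and 29 small subunit genes (squares) in each array; open symbols are arrays with pancreatic transcripts. The subunits lie together in the telomerase tumours, whose mean is the reference for each gene, and in ALT tumour 3. They are furthest apart in ALT tumours 2 (0.18) and 5 (0.13).

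The members were then split by ancestry. Of 45 members with a bacterial counterpart 1 rose and 3 fell (median −0.0094), and of 28 found only in mitochondria 2 rose, Mrpl50 among them, and 3 fell (median −0.014). These are 8.89% and 17.9% called, beside 17.5% of all tested genes. The 10 mitochondria-specific small subunit proteins were lower in 8 cases, with 2 calls (Mrps31 and Mrps34, 20% of this small group, near the share of all genes) and a median of −0.084. The 18 specific large subunit proteins had 2 rises and 1 fall (16.7% called) and a median of 0.074.

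Of the fixed set of functional landmarks of the ribosome, Mrpl32 and Mrps34 fell, as given above. None of the landmarks described next was called. Mrpl12, the stalk protein that helps recruit translation factors, was 3063 ± 383 (SD, n = 3) in telomerase and 3715 ± 262 (SD, n = 5) in ALT tumours (log2 change 0.28, 95% interval 0.08 to 0.49, limma adjusted p = 0.0599). Of the 8 fits with an array left out, Mrpl12 passed the threshold only without telomerase tumour 2 (0.37, limma adjusted p = 0.0368). Mrpl10 and Mrpl11, which anchor the stalk, had changes of −0.20 and −0.19 (limma adjusted p = 0.232 for each). Mrps12, at the decoding site, had a change of 0.043 (95% interval −0.14 to 0.22), and Mrps16, an early-joining protein of the small subunit body, −0.01. Mrpl3, a core protein near the peptidyl transferase centre, was 2823 ± 134 (SD, n = 3) and 2883 ± 142 (SD, n = 5), a change of 0.030 with an interval of −0.12 to 0.18. Mrpl58, a ribosome-bound hydrolase that frees stalled peptides, had −0.045. Mrpl44, related to RNase III, had 0.23 (limma adjusted p = 0.182), and Mrps22 −0.24 (limma adjusted p = 0.29).

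Some symbols do not tell a protein's place. Mrps18a, Mrps18b and Mrps18c are 3 relatives of bacterial S18, of which Mrps18a sits in the large subunit, as does Mrps30. Their changes were 0.14, −0.08 and −0.14, none called, and Mrps30 gave −0.14 (limma adjusted p = 0.371). Mrps36, first named as a small subunit protein, is now known to belong to the 2-oxoglutarate dehydrogenase complex. Mrps18a and Mrps30 were then moved to the large subunit and Mrps36 was left out. The calls stayed at 3 rises and 3 falls in the large (12.2%) and 3 falls in the small subunit (11.5%). The medians by place were −0.0025 (large) and −0.034 (small). The per-array subunit means above go by symbol, with Mrps18a, Mrps30 and Mrps36 in the small subunit, and were not computed by place. Of all tested genes 17.5% were called.

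Mrpl19, Mrpl17 and Mrpl21 had groups that did not overlap without a call. Mrpl19 was 654 ± 8.61 (SD, n = 3) and 789 ± 59.7 (SD, n = 5), a change of 0.26 (limma adjusted p = 0.0659). Mrpl17 had a change of 0.23 (limma adjusted p = 0.101) and Mrpl21 of −0.13 (limma adjusted p = 0.25). All 3 are large subunit proteins with bacterial counterparts.

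Members varied less among tumours of a group than tested genes in general: the median SD of log2 values was 0.11 in telomerase and 0.14 in ALT tumours, against 0.15 and 0.19 over all tested genes. Members are bright, and no filter on level separated them, so the smaller spread is given as measured and was not compared at matched signal. The median member had a mean signal of 1065 in telomerase and 1076 in ALT tumours.

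Members were also read by their position in the genome. Chromosome 13 carries 5 members, Mrpl32, Mrpl36, Mrps27, Mrps30 and Mrps36, and all 5 were lower in ALT tumours, with a median of −0.32 and 1 call. On that chromosome 178 of 443 tested genes fell and 9 rose, with a median of −0.37. The 71 members on other chromosomes had 3 rises and 5 falls (11.3%, against 17.5% of all tested genes) and a median of −0.0064.

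Along chromosome 13 the members did not move as a block. Mrps36 read 974, 893 and 992 in the telomerase tumours and 602, 599.8, 992, 693 and 634 in the ALT tumours, so ALT tumour 3 was at the telomerase level and the others below it. The change was −0.45 (95% interval −0.80 to −0.10, limma adjusted p = 0.0757). Of the 8 fits with an array left out, only that without ALT tumour 3 passed (−0.58, limma adjusted p = 0.00407). The highest limma adjusted p among the 8 was 0.201. Mrps27, a pentatricopeptide repeat protein, showed the same order, with 227, 236 and 253 against 177, 139, 242, 197 and 196 (change −0.32, limma adjusted p = 0.18). Mrpl36, counterpart of bacterial L36, had 1156, 939.5 and 1011 against 803, 775, 1278, 781 and 802 (change −0.24, limma adjusted p = 0.358). Of the fits with an array left out, it was called lower only in that without ALT tumour 3. Mrps30 had 1645, 1528 and 1576 against 1437, 1304, 1695, 1274 and 1494. In ALT tumour 3 these 4 genes deviated by 0.020 to 0.30 from the telomerase mean, whereas Mrpl32 was at −0.84 there, close to the other ALT tumours.

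Genes next to the members were read in the same way, 10 tested genes on each side in RefSeq order on GRCm38.p6, other members left out. Around Mrpl32, 15 of 20 neighbours fell and none rose, with a median of −0.73, and in ALT tumour 3 their mean deviation was −1.12. Around Mrps36, Mrps27 and Mrpl36, 5, 6 and 9 of 20 neighbours fell and none rose (medians −0.31, −0.38 and −0.36). The neighbours of Mrps36 and Mrps27 are in part the same genes. Over the whole of chromosome 13, 178 of 443 tested genes fell and 9 rose. The neighbours of Mrps36 deviated by −0.19 in ALT tumour 3 and by −0.38 to −0.61 in the other ALT tumours. The 19 neighbours of Mrps30, close to the chromosome's end, had a median of −0.11. The median of the other tested chromosome 13 genes was −0.23 in ALT tumour 3 and −0.39 to −0.45 in the other ALT tumours.

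Off chromosome 13, around Mrpl28 on chromosome 17, 9 of 20 neighbours rose and none fell, with a median of 0.43, close to its own 0.39. Over the whole of chromosome 17, 57 of 619 tested genes rose and 27 fell (median 0.059). Mrps34, on the same chromosome, fell while its neighbours had a median of −0.017 with 1 fall. Around Mrpl39 (chromosome 16) 5 of 20 neighbours fell and none rose, with 16 lower (median −0.17, its own change −0.23). Over chromosome 16, 66 of 411 tested genes fell and 32 rose (median −0.066). Around Mrps21 (chromosome 3) 4 of 20 fell and 1 rose, with 17 lower (median −0.21). Over chromosome 3, 90 of 613 tested genes fell and 30 rose (median −0.10). The neighbours of Mrpl4, Mrpl50, Mrpl57 and Mrps31 had medians of 0.027, 0.12, −0.11 and −0.034. These neighbourhoods were looked at after the members' values were seen, and no test was made of them.

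**Figure D4:**
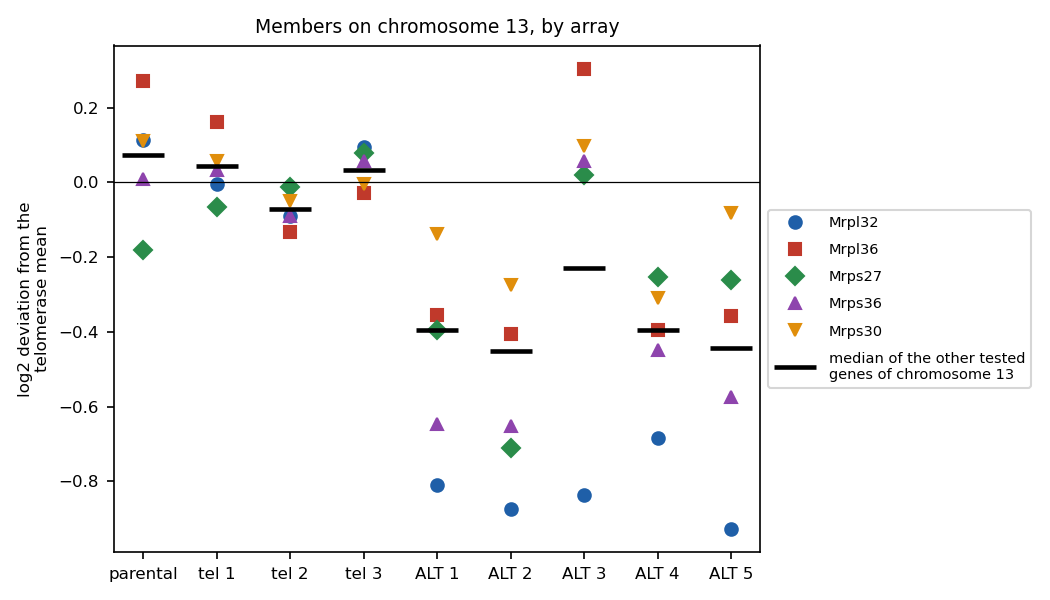
Log2 deviation from the telomerase mean (y axis) of the 5 members on chromosome 13 in each array, with the median of the other tested genes of that chromosome (bars). Mrpl32 is low in all 5 ALT tumours, and the other 4 members are at or above 0 in ALT tumour 3.

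The choice of probe set mattered for several members. Of 76 members 42 have more than 1 probe set, and of 39 with at least 2 tested ones 17 had changes of both signs. Of 145 member probe sets tested on their own, 6 rose and 12 fell, in 15 members. This is 12.4%, against 20.2% of all 22354 probe sets in the same fit (7.72% higher and 12.5% lower). The members below were picked after their values were seen, as those with a called probe set that was not their brightest.

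Mrpl1, counterpart of the protein of the bacterial L1 stalk, had the largest change of any member probe set. Its second probe set read 199.8, 163 and 163 in the telomerase tumours and 48.2, 47.9, 34.9, 54.9 and 42.2 in the ALT tumours, with 168 in the parental tumour. The ALT tumours formed a tight low group far from all others. The change was −1.64 (SE 0.14, limma adjusted p = 6.07e-05), and the call held without each array in turn, without the pancreatic arrays (limma adjusted p = 0.00409) and within them (limma adjusted p = 0.0221). The brightest Mrpl1 probe set was the same in both groups, 535 ± 40.9 (SD, n = 3) and 535 ± 29.4 (SD, n = 5), with an interval from −0.20 to 0.20. Which transcripts of Mrpl1 each probe set detects was not analysed here.

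Mrps5, counterpart of bacterial S5, had a like difference on a dimmer probe set, with 216, 211 and 184 against 111, 104, 104, 104 and 93.9, a change of −0.88 (SE 0.10, limma adjusted p = 0.00034). Its brightest probe set had −0.11 without a call. On its second probe set Mrps14, of the small subunit head, read 637, 612 and 583 against 317, 288, 396, 375 and 224 (change −0.93, limma adjusted p = 0.00347), while its brightest probe set had −0.068. Both calls held without each array in turn and without the pancreatic arrays (0.0105 and 0.0242), and missed the threshold within those arrays (0.125 and 0.0603, all limma adjusted p). For each of these 2 genes the lower probe set separated the groups with no overlap and the brighter one did not.

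Dimmer probe sets of 3 more members differed too. A dim probe set of Mrpl35 read 35.1, 48.8 and 48.8 in the telomerase tumours and 11.1, 15.7, 19.1, 19.8 and 15.4 in the ALT tumours. It passed the filter (a signal of 25.3) only through the telomerase tumours, so its place among the 12 falls is no support, and its difference missed the threshold within the arrays without and with pancreatic transcripts (limma adjusted p = 0.119 and 0.101). Mrpl38 rose on a dimmer probe set by 0.64 (limma adjusted p = 0.0157), with calls lost without telomerase tumour 1 (0.0652) or 2 (0.0539). Mrpl52 rose on a dimmer probe set by 0.89 (limma adjusted p = 0.0271), from 65.6 ± 32.6 (SD, n = 3) to 126 ± 12.3 (SD, n = 5), a call lost without telomerase tumour 1 (0.0535), ALT tumour 1 (0.057), ALT tumour 2 (0.0537) or ALT tumour 4 (0.05001). The brightest probe sets of Mrpl35, Mrpl38 and Mrpl52 had changes of 0.0074, 0.16 and −0.11 without a call.

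**Figure D5:**
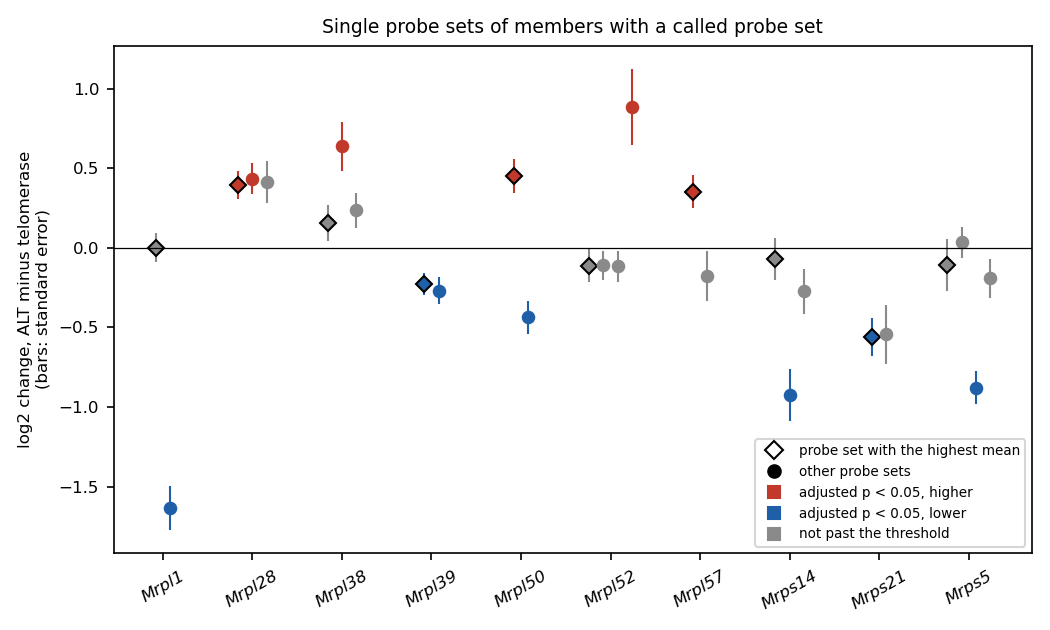
Log2 change, ALT minus telomerase tumours (y axis), of each tested probe set with a mean above the filter in both groups, for the 10 members with several of these and at least 1 called; bars are standard errors and diamonds mark the brightest probe set. Mrpl1, Mrps5 and Mrps14 each pair a brightest probe set near 0 with another at −0.88 or below, and Mrpl50 has called probe sets on both sides of 0.

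The rest of the mitochondrial translation apparatus was read from lists of known genes. Ribosome subunits without an Mrp symbol (Dap3, Ptcd3, Chchd1 and Gadd45gip1, 4 of 5 listed and tested) had 0 calls in limma and 0 unadjusted p under 0.05, with a median of −0.068. Of 13 tested translation factors, which start, extend and end the peptide or insert it in the membrane, limma called 0, with 3 unadjusted p under 0.05 and a median of −0.061. Gfm1, an elongation factor, had a change of 0.27 (limma adjusted p = 0.0759) and Oxa1l, the membrane insertase, 0.24 (limma adjusted p = 0.0745), and with quantile normalisation 1 factor rose. Tufm, the elongation factor that brings tRNA, had −0.18 (limma adjusted p = 0.149).

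Among 30 tested genes of ribosome assembly and rRNA modification 3 rose and 3 fell, 20% against 17.5% of all tested genes, with a median of 0.084. Rbfa, which helps the small subunit rRNA mature, fell from 1011 ± 248 (SD, n = 3) to 467 ± 99.6 (SD, n = 5), a change of −1.08 (limma adjusted p = 0.00539). Mterf3, a chromosome 13 gene that acts in large subunit assembly, fell from 1245 ± 40.2 (SD, n = 3) to 832 ± 87.6 (SD, n = 5), by −0.58 (limma adjusted p = 0.00354). Nsun4, the rRNA methyltransferase of the small subunit that also joins the subunits, changed by −0.65 (limma adjusted p = 0.00908). These 3 falls held whichever array was left out. Within the arrays without pancreatic transcripts Rbfa alone was called (−1.45, limma adjusted p = 0.00226), and within those with them none was, Rbfa being at −0.54 (limma adjusted p = 0.381). With the mean of its probe sets Nsun4 was at −0.20 and not called (limma adjusted p = 0.122).

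The 3 assembly genes that rose were named after their values were seen. Afg3l2, a subunit of the m-AAA protease that cuts the Mrpl32 precursor, rose by 0.57, from 279.9 ± 19.7 (SD, n = 3) to 429 ± 86.8 (SD, n = 5) (limma adjusted p = 0.0231). Mrm1, an rRNA 2′-O-methyltransferase, rose by 0.86 (limma adjusted p = 0.0194) and Tfb1m, an rRNA dimethyltransferase, by 0.53 (limma adjusted p = 0.0291). Without telomerase tumour 1, 2 or 3 in turn, 1, 1 and 0 of the 3 remained called. Tfb1m was also lost without ALT tumour 2 (0.0623) or 4 (0.0533), all by limma adjusted p. Within the arrays without pancreatic transcripts Afg3l2, Mrm1 and Tfb1m changed by 0.51, 0.70 and 0.57, none called (limma adjusted p = 0.0904, 0.12 and 0.128). Within those with them the changes were 0.58, 1.26 and 0.52.

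Cytosolic ribosomal proteins, the other ribosome of the cell, gave 0 higher and 2 lower calls among 43 tested of 79 listed. This is 4.65%, against 17.5% of all tested genes, with a median change of −0.053. Rplp0 and Rplp2, proteins of the cytosolic stalk, fell by 0.19 and 0.16 on the log2 scale (limma adjusted p = 0.0126 and 0.019). Without telomerase tumour 1 neither passed, Rplp2 also missed without telomerase tumour 2 (limma adjusted p = 0.0831), and with quantile normalisation 1 gene of the list rose and none fell. Of 10 tested regulators of nuclear genes for mitochondria 2 rose, 20% against 7.48% of all tested genes called higher and 17.5% called either way: Pprc1, a PGC-1-related coactivator (change 0.55, limma adjusted p = 0.00402), and Ppargc1b, a PGC-1 family coactivator (0.62, limma adjusted p = 0.0239). Pprc1 held without each array in turn, and Ppargc1b was lost without telomerase tumour 1 (limma adjusted p = 0.0787) or 3 (0.0884). Within the arrays without pancreatic transcripts neither was called (Pprc1 0.39, limma adjusted p = 0.112, and Ppargc1b 0.44, limma adjusted p = 0.0924). Within those with them the changes were 0.71 and 0.86. Yy1 and Nrf1, whose motifs were searched above, had changes of 0.26 (limma adjusted p = 0.0794) and 0.24 (limma adjusted p = 0.0984).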

How the data were processed

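Affymetrix Mouse Genome 430 2.0 arrays were hybridised with biotin-labelled total RNA from 9 T-cell lymphomas of mice. The deposited values are linear intensities of 45101 probe sets per array, which the authors computed in MAS5, per the submitters' processing notes. No source used here gives its version, scaling target or detection calls, which leaves the background level unknown. Precision is limited by how few arrays there are.

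Probe sets were named from the array's annotation: 34958 named 1 gene, 932 several and 9211 none. Mrpl30 and Mrpl53 are named only by probe sets of several genes and were not analysed here. The brightest probe set over the 9 arrays stood for a gene. Genes above the lowest 40% of probe sets (a mean signal of 25.3) were fitted as log2(signal + 16) in limma 3.58.1 (R 4.3.3; lmFit, eBayes with trend), 5 ALT against 3 telomerase tumours, two-sided, with Benjamini-Hochberg adjustment over all genes at 0.05. The fit was tested on simulated data with known changes added. On the log2 scale it recovered 4.08% of changes of 0.3, 23.4% of 0.5, 79.2% of 1 and 95.7% of 2. Changes of 0.5 or less were thus mostly missed, and a member without a call may still have changed.

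The members, lists and rules were chosen with earlier results of these data known. Named members are all called ones, up to 8 more with groups that do not overlap, a fixed set of functional landmarks, and up to 3 genes a list with the smallest p. Lists named 215 genes, of which 165 matched. Neighbouring genes and promoters come from RefSeq on GRCm38.p6.

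Other settings were no filter or one at 60%, pseudocounts of 1 and 64, quantile normalisation, median centring, other probe set rules, the parental tumour added or as its own group, replicate numbers as a block, no trend, robust moderation, an adjusted p of 0.1, subunit by place in the ribosome, and each array left out. Added after seeing the data were a term for pancreatic transcripts, comparisons within the arrays without and with them, and the members off chromosome 13.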

Additional observations from a re-analysis of the deposited data

Results flagged for a closer look

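The 30 groups of values screened for a lone extreme sample were those of the 27 named members and the subunit scores. Of these 2 stood out, where chance gives about 1 in 20. Other members were not screened. Mrpl36 is one of them, with 1278 in ALT tumour 3 against 775 to 803 in the other ALT tumours. Mrps21 in ALT tumour 3 was at 855, the highest of the 5 ALT tumours, with the nearest at 719.8. On the scale of log2(signal + 16), on which members were screened, this gap is 0.714 of the group's range. Mrps36 in ALT tumour 3 was at 992, with the nearest at 693, a gap of 0.713 of the range on the same log2 scale. The limit for 5 samples is 0.71, so both lie just past it.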

How the results depend on the processing

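The count of 9 called members (6 large, 3 small) became 15, 10 and 5 when each probe set counted on its own. The large subunit count became 3 without the expression filter (10.6% of all genes called) and without the trend (16.1%). With the replicate block 2, 2 and 0 were called (8.01% of all genes called). No label used here says whether shared replicate numbers pair the tumours. Same-numbered tumours correlated at −0.30, −0.40 and −0.57 in their deviations. Deviations from the means of 3 and 5 arrays cannot settle pairing, and the block is given here only. Within the arrays without pancreatic transcripts 2, 2 and 0 were called, and within those with them 1, 1 and 0, with a large subunit median of 0.050 and a large minus small difference of 0.12. Leaving out each array gave 1 to 8 called members, 1 to 5 large and 0 to 4 small, medians of −0.023 to 0.032 (large) and −0.067 to −0.0072 (small), and a difference of 0.013 to 0.082. Members near 0 changed sign. Mrps16 went to 0.023 (quantile), 0.012 (parental tumour added), 0.13 (arrays without pancreatic transcripts) and 0.028 (term for them), and ranged from −0.075 to 0.037 with an array left out. Mrpl58 went to 0.0024 (quantile), 0.029 (second probe set) and 0.050 (arrays with pancreatic transcripts), and ranged from −0.11 to 0.017. Mrps18b went to 0.17 (arrays with them) and 0.022 (term), and ranged from −0.24 to 0.0041. Mrpl3 went to −0.0049 (arrays without them). Other probe sets gave opposite signs for Mrpl50 (−0.43), Mrpl57 (−0.18), Mrpl19 (−0.31), Mrpl21 (0.15) and Mrpl3 (−0.44). The causes were not tested. Over all genes the median change was 0.028 with quantile normalisation. Background level is unknown, so changes of dim probe sets are the least certain.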
